A study of Caenorhabditis elegans with 2 samples.

Results

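The genes described here carry the names of proteins of the cytosolic ribosome in the nematode Caenorhabditis elegans. They were chosen by name alone: every row whose gene name began with rpl- or rps- and a digit, or was rla-0, rla-1, rla-2, rpa-0, rpa-1 or rpa-2. This gave 80 genes out of 19874 analysed, of which 47 carried names of the large ribosomal subunit (rpl and rla) and 31 names of the small subunit (rps). The remaining 2, rpa-1 and rpa-2, belong to neither, and no row was named rpa-0.

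The ribosome reads messenger RNA on its small subunit and joins amino acids on its large subunit. Each subunit is built on ribosomal RNA and holds, with few exceptions such as the acidic stalk, a single copy of each of its proteins. Ribosomal protein messages are among the most abundant in growing animals, and insulin and TOR signalling are known to act on how strongly they are made and translated.

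RNA was sequenced from 2 samples, replicates 1 and 2 of a single double mutant, whose alleles are daf-2(e1370) with daf-12(m20). The gene daf-2 encodes the insulin/IGF-like receptor, which e1370 weakens in a temperature-sensitive way, and daf-12 encodes a nuclear hormone receptor. Whole animals of mixed stages were grown at 20 °C on plates with OP50 bacteria, so every value averages tissues and stages, and fewer cells of a type cannot be told apart from less RNA per cell. Separate cultures are not named in the labels, and the spread between replicates may thus be technical. Wild type animals were not analysed here, and nothing below shows an effect of the mutations. Values are the authors' RPKM, reads scaled to gene length and to the library. Low values stepped in units worth 1 read at a depth of about 10560000 reads (replicate 1) or 14650000 reads (replicate 2), and read numbers below are estimates from those steps. All 69 markers of germ line, oocyte, sperm, muscle, intestine, epidermis, neurons and pharynx were above 0 in both replicates. This does not show that each was detected, as no gene analysed was at 0 in both replicates. The lowest marker means were 0.075 RPKM in the pharynx list and 0.335 RPKM in the sperm list.

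The names did not all stand for ribosomal proteins. In C. elegans rpa-1 and rpa-2 are the names of replication protein A subunits, which coat single-stranded DNA, whereas RefSeq gives the ribosomal stalk genes rla-0, rla-1 and rla-2 the symbols rplp-0, rplp-1 and rplp-2.2. RefSeq names rpl-24.2 as rsl-24D1, whose human and yeast relatives are assembly factors of the large subunit and not parts of the finished ribosome. In these libraries all 3 were far below most other members, though above the upper quartile of all genes. rpa-2 had 118 RPKM (replicate 1) and 127 RPKM (replicate 2), rpa-1 had 86.6 and 78.4 RPKM, and rpl-24.2 had 38.0 and 41.6 RPKM. The other 2 genes below 700 RPKM were rpl-42, at 2.65 and 1.91 RPKM from about 12 reads in each replicate, and rpl-37, at 0.69 and 0.49 RPKM from about 2 reads in each. The floor of 3 reads was 1.03 RPKM for rpl-37 in replicate 1 and 0.742 RPKM in replicate 2, so rpl-37 was not detectable above it in either, and counting error alone is covered by this limit.

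The remaining 75 genes were separated from these 5 by a wide gap. They lay between 737 ± 17.6 RPKM for rpl-28 and 5509 ± 172 RPKM for rps-25 (SD, n = 2), a 7.47-fold range, and the next gene below was rpa-2. Of the 80 genes, 71 had a mean of at least 1000 RPKM, against 1.03% of all genes. At least 700 RPKM was reached by 75, against 1.42% of all genes, and at least 100 RPKM by 76, against 7.63%. Of all genes at 1000 RPKM or more, 34.6% were members of the set. The median of the 80 was 2232 RPKM, beside 6.17 RPKM for all genes. Their summed RPKM was 17.1% of the total for replicate 1 and 17.8% for replicate 2. Their share of estimated reads, which does not divide by length, was lower, at 9.85% and 10.5%. Reads can be estimated only for genes with a coding length, so rpl-41 is not in that share.

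**Figure D1:**
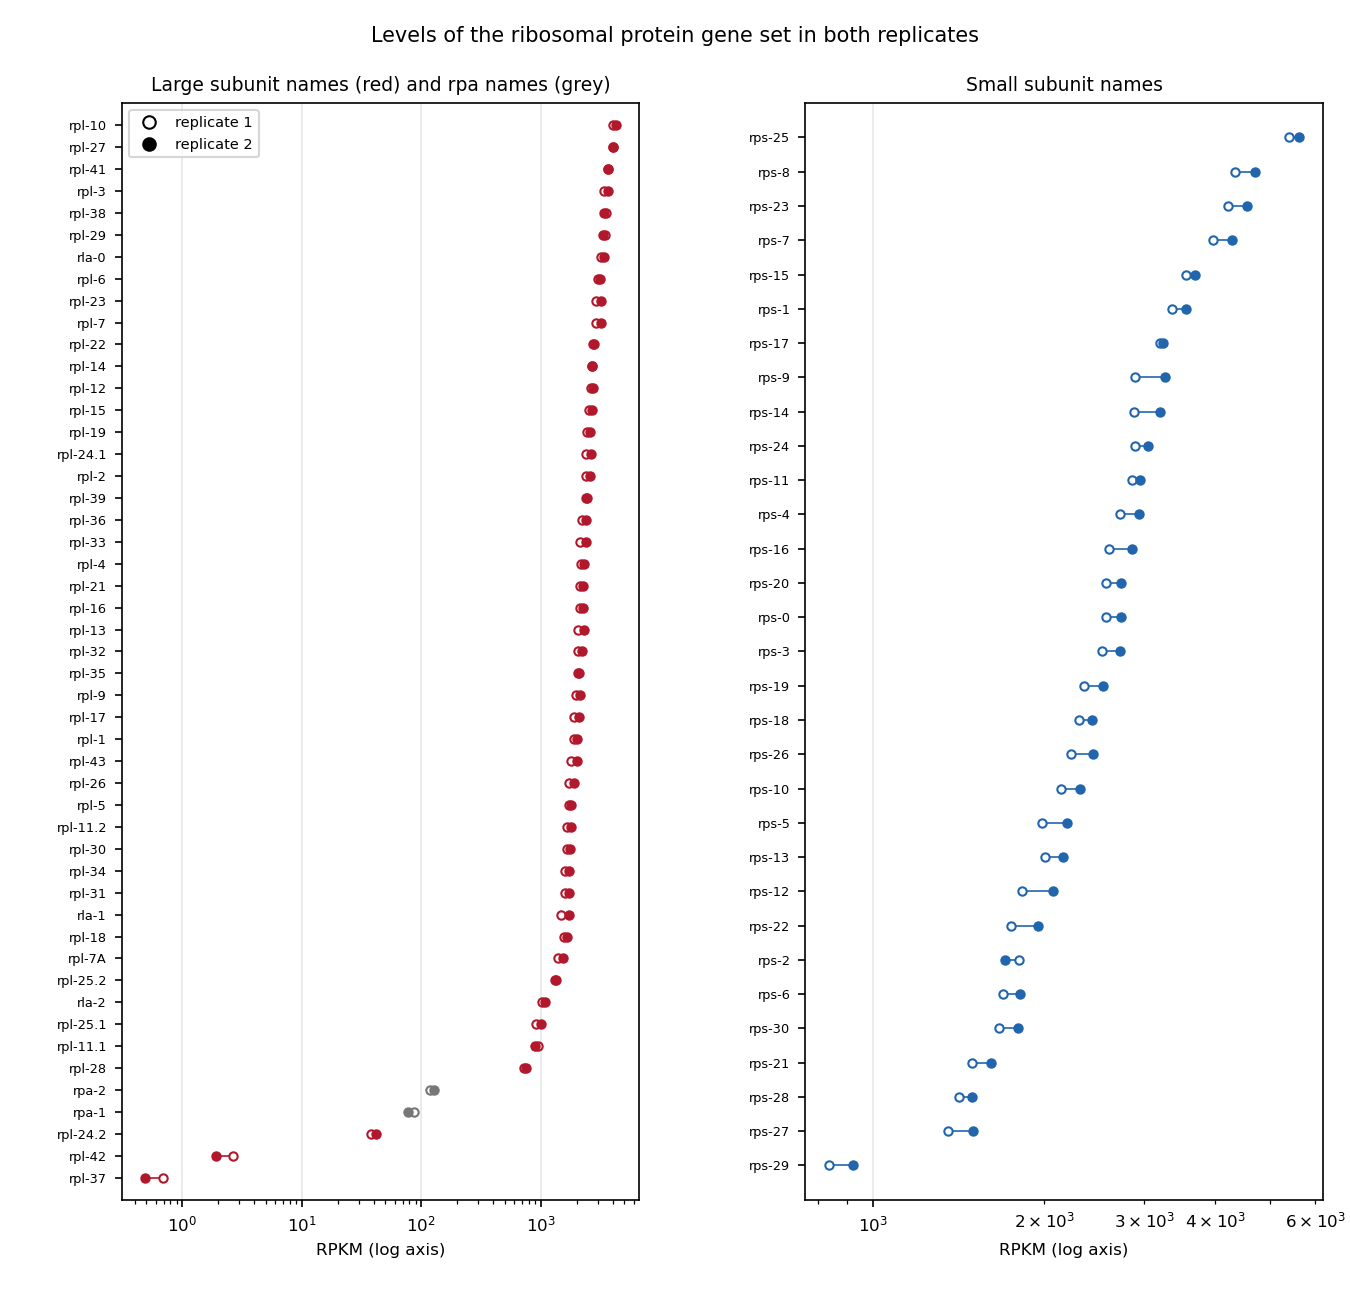
RPKM of each gene on a log axis in replicate 1 (open points) and replicate 2 (filled points), with large subunit names in red, rpa names in grey and small subunit names in blue. The axes of the panels differ: 75 genes lie between 737 and 5509 RPKM, and the 5 genes below them are all in the left panel.

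Rows outside the name rule held 8 further genes of the ribosome. Of these ubq-2, ubl-1 and rack-1 were listed with the rule, and the other 5 were found from their RefSeq symbols after values were seen. F54D7.7 (rpl-41.2), which encodes the smallest ribosomal protein, was highest at 7466 ± 55.5 RPKM, and Y37E3.8 (rpl-27A) was at 3415 ± 135 RPKM. The fusion gene ubq-2, which joins ubiquitin to a large subunit protein, was at 2837 ± 161 RPKM, and ubl-1 (rps-27A), which joins a ubiquitin-like protein to a small subunit protein, was at 1756 ± 127 RPKM. rack-1, the gene of a signalling scaffold on the small subunit head, was at 2073 ± 109 RPKM. W01D2.1 (rpl-37.1), C37A2.7 (rplp-2.1) and F54D7.6 (rpl-41.1) were at 1790 ± 70.6, 1723 ± 192 and 463 ± 23.7 RPKM (SD, n = 2). With these 8 the share of all RPKM was 19.1% in replicate 1 and 19.9% in replicate 2. The large subunit gene rpl-20 was not analysed here.

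Small subunit genes were the more abundant on average, but the subunits overlapped broadly. The median was 2173 RPKM over 47 large subunit names and 2626 RPKM over 31 small subunit names. On the log2(RPKM + 1) scale the large minus small difference of medians was -0.29 in replicate 1 and -0.27 in replicate 2. The spread between replicates was 0.01 (SD, n = 2), but it comes from the same genes and does not cover the choice of genes. Genes within a subunit differed far more than the subunits did: the quartiles were 1667 and 2689 RPKM for the large subunit genes and 1900 and 3057 RPKM for the small subunit genes. Below the small subunit median were 34 of 47 large subunit names, and below the large subunit median were 11 of 31 small subunit genes. The difference also depended on which genes were counted, being -0.25 without rpl-24.2, rpl-37 and rpl-42 and -0.17 with the 8 genes listed under other names. Summed RPKM of large subunit names was 1.24 times that of small subunit genes in replicate 1 and 1.22 times in replicate 2. Genes are not replicates of a condition, so no test was made between the subunits.

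The small subunit held the highest member. rps-25, whose yeast and human relatives are needed for initiation at some viral internal ribosome entry sites, had 5387 RPKM (replicate 1) and 5630 RPKM (replicate 2). Both values exceeded those of every other gene chosen by the name rule. rps-8, in the body of the subunit, was at 4333 and 4706 RPKM. rps-23, a protein of the decoding centre, was at 4208 and 4561 RPKM. Its range between replicates overlapped that of rps-8, but rps-8 was higher within each replicate. rps-7, whose protein acts in maturation of the small subunit, was at 3959 and 4287 RPKM, and rps-15, a head protein near the decoding centre, at 3561 and 3689 RPKM. At the other end rps-29, which encodes a short zinc-binding head protein, was at 836 and 920 RPKM, below the other 30 small subunit genes in both replicates. rps-6, the known substrate of S6 kinase, was in the lower part of the range, at 1694 and 1817 RPKM.

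Within the small subunit, head and body genes differed little. The 13 head genes had a median of 2448 RPKM and the 18 body and platform genes a median of 2738 RPKM, a difference on the log2(RPKM + 1) scale of -0.17 in replicate 1 and -0.16 in replicate 2. The head held both the highest gene, rps-25, and the lowest, rps-29, and 10 of its 13 genes were below the body median. Along the path of the messenger RNA, the entry genes rps-3, rps-2 and rps-30 had mean values of 2626, 1759 and 1734 RPKM. The exit genes rps-14, rps-26 and rps-28 had 3040, 2338 and 1455 RPKM.

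The 3 large subunit genes listed for the catalytic centre ranged from 2486 to 4144 RPKM. rpl-10, whose protein joins late in assembly and lies close to the transfer RNAs, had 4025 RPKM (replicate 1) and 4264 RPKM (replicate 2). rpl-3, which reaches toward the peptidyl transferase centre, was at 3419 and 3663 RPKM, and with about 43542 and 64725 reads it was the most deeply covered member with a coding length. rpl-2 (RefSeq rpl-8), the other protein near the centre, was at 2385 and 2586 RPKM, below the upper quartile of 2689 RPKM of the large subunit genes. rpl-27 stood at 4044 RPKM in both replicates, and the row listed as rpl-41 at 3648 and 3639 RPKM. That row matched no current gene of that name, since rpl-41.1 and rpl-41.2 have rows of their own, so its place and length are not given. rpl-38, linked in mice to the translation of Hox messages, was at 3513 and 3414 RPKM. The lowest abundant gene was rpl-28, at 725 and 750 RPKM in replicates 1 and 2.

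Genes of the exit tunnel were close to each other. The exit tunnel genes rpl-39, rpl-4 and rpl-17 had means of 2422, 2236 and 1995 RPKM, a 1.21-fold range. At the rim of the tunnel, where nascent chains meet their targeting factors, the 6 genes ranged 2.60-fold, from 970.5 RPKM for rpl-25.1 to 2523 RPKM for rpl-19. rpl-5, which carries the small 5S ribosomal RNA into the subunit together with the rpl-11 protein, was at 1770 ± 59.4 RPKM.

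The acidic stalk draws elongation factors to the ribosome and is its best known part with more than a single copy of a protein. rla-0, the base of the stalk, had 3197 RPKM (replicate 1) and 3401 RPKM (replicate 2). rla-1 was at 1484 and 1744 RPKM, and rla-2 at 1033 and 1091 RPKM. The copy C37A2.7, a second gene that RefSeq gives the rplp-2 stem, was at 1588 and 1859 RPKM, 1.54 and 1.70 times the level of rla-2. rla-1 and rla-2 summed to 0.787 times rla-0 in replicate 1 and 0.834 times in replicate 2, and to 1.28 and 1.38 times once C37A2.7 was added. These are ratios of messages, and the copy numbers of the proteins were not measured.

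Paralogs were set against each other within each replicate. The rpl-11 protein has a pair of genes with equal coding lengths of 591 bp. rpl-11.2, on chromosome X from 2241738 to 2242618 in WBcel235, was at 1664 and 1788 RPKM, and rpl-11.1, on chromosome V from 3585312 to 3586064, was at 956 and 898 RPKM. The fold of rpl-11.2 over rpl-11.1 was 1.74 in replicate 1, with an exact binomial 95% interval of 1.69 to 1.8, and 1.99 in replicate 2, with an interval of 1.94 to 2.05. These intervals cover counting error only. The intervals did not overlap, so the balance of this pair differed between the libraries by more than counting error: rpl-11.2 was higher in replicate 2 and rpl-11.1 in replicate 1. Germ line markers also differed between the libraries: all 12 were lower in replicate 2, as were 7940 of 14313 genes. They summed to 642 RPKM there beside 731 RPKM in replicate 1. Other marker lists differed too, with 7 of 8 sperm markers higher and 5 of 6 epidermis and cuticle markers lower in replicate 2. The part of any of these markers in this pair was not tested.

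For the protein at the tunnel rim that docks targeting factors, rpl-25.2, on chromosome I from 8329062 to 8329647, was at 1327 and 1344 RPKM. Its paralog rpl-25.1, on chromosome X from 4715178 to 4715796, was at 924 and 1017 RPKM. The fold of rpl-25.2 over rpl-25.1 was 1.44 (1.38 to 1.49) in replicate 1 and 1.32 (1.28 to 1.36) in replicate 2, with exact binomial 95% intervals. Here the gap was narrower in replicate 2, and both genes were higher there. For rpl-25.2 the exact Poisson 95% intervals of replicates 1 and 2 overlapped (1294 to 1360 and 1316 to 1372 RPKM). For rpl-25.1 they did not (896 to 952 and 993 to 1042 RPKM). The larger copy was thus the X-linked gene for rpl-11 and the autosomal gene for rpl-25.

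Apart from C37A2.7 and rla-2, given above with the stalk, the other pairs were far from balance or were no paralogs in the strict sense. rpl-24.1, the structural gene, exceeded the assembly factor gene rpl-24.2 by 62.6-fold (54.4 to 72.6) in replicate 1 and 63.7-fold (56.8 to 71.6) in replicate 2. F54D7.7 exceeded its neighbour F54D7.6 by 16.8-fold and 15.5-fold, although the annotated coding lengths of both are only 69 bp, so that RPKM rests on a short stretch. W01D2.1 was at 1740 and 1840 RPKM, while rpl-37, which RefSeq lists as rpl-37.2, rested on about 2 reads in each replicate. The ratio of W01D2.1 to rpl-37 was 2522 in replicate 1, with a counting interval of 702 to 20950, and 3755 in replicate 2, with an interval of 1030 to 30728. Of this pair only W01D2.1, outside the name rule, was above the floor of 3 reads. rpl-7 and rpl-7A encode unrelated proteins despite the shared stem, and their ratio was 2.08 in replicate 1 and 2.07 in replicate 2. How the authors assigned reads shared by near-identical copies is not given in the sources used here, so the split within each paralog pair is uncertain.

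**Figure D2:**
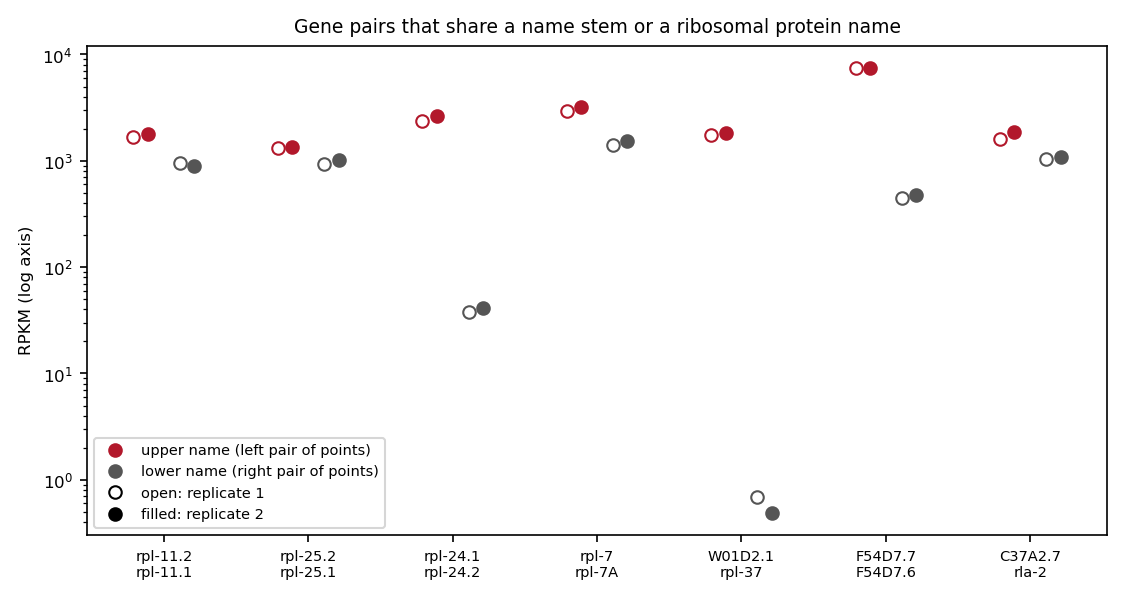
RPKM on a log axis for 7 gene pairs, with the upper name of each label in red on the left, the lower name in grey on the right, replicate 1 open and replicate 2 filled. rpl-11.2, rpl-25.2 and C37A2.7 lie less than 2-fold above the lower names of their labels, whereas rpl-24.2 and rpl-37 lie at 41.6 RPKM or lower.

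The order of levels was compared by the ranges of the replicates. Among the 75 genes at 700 RPKM or more there were 74 pairs of neighbours in the order of means. The ranges of both replicates overlapped in 67 of them. Most of these genes were higher in replicate 2, so ranges can overlap where the order is the same in both libraries. An overlap therefore does not show that the order of a pair was unresolved. The 7 breaks lay mostly at the ends: rps-25 above rps-8 at the top, rpl-27 above rpl-41, rps-17 above rpl-6, and at the bottom rps-27 above rpl-25.2, rpl-25.2 above rla-2, rla-2 above rpl-25.1 and rps-29 above rpl-28. The spread between replicates had a median of 4.93% of the mean (SD, n = 2). Level and coding length were weakly related across the 74 of these genes with a coding length (Spearman's rho 0.23, a description across genes that share 2 libraries). The median was 1737 RPKM for the 8 genes with under 300 bp of coding sequence, 2274 RPKM for 45 genes of 300 to 600 bp and 2609 RPKM for 21 longer genes. Genes under other names are not in these classes. Of the short ones, F54D7.7 and F54D7.6 (69 bp) were at 7466 and 463 RPKM, and W01D2.1 (279 bp) at 1790 RPKM.

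Between the replicates most, but not all, ribosomal protein genes were slightly higher in replicate 2. Among the 79 with a mean RPKM of at least 1, 71 were higher in replicate 2, against 44.2% of 14313 genes, and the median log2 ratio of replicate 2 to replicate 1 was 0.10, beside -0.02 for all genes. For the 75 abundant genes this was a 1.07-fold difference, and 69 were higher in replicate 2. The direction was shared by other abundant genes: of 200 further genes at 700 RPKM or more, 74% were higher in replicate 2, with a median log2 ratio of 0.06. The ribosomal genes were more tightly grouped, with an SD of the log2 ratio of 0.06 over 75 genes and 0.13 over those 200. Beyond 1.2-fold in either direction lay 1 of the 79 genes, against 19.3% of all genes, which include many with few reads. At 700 RPKM or more it was 0 of 75 members, against 5% of the 200 other genes. None of the 79 was beyond 1.2-fold higher in replicate 2, against 8.29% of all genes, and the 1 that was higher in replicate 1, against 11% of all genes, was rpl-42 with its 12 reads. Beyond 2-fold lay none of the 79, against 0.713% of all genes.

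This shift was larger than counting error but depended on the scaling. For the 74 abundant genes with a coding length, counting alone gives a median SD of the log2 ratio of 0.02, and the exact Poisson 95% intervals of the replicates did not overlap for 61, of which 59 were higher in replicate 2. The split of 71 higher and 8 lower became 50 and 23, with 6 at a ratio of exactly 1, after quantile normalization, with a median log2 ratio of 0.02. It became 61 and 18 when the ratios were set to a median of 0 over the 200 other abundant genes, with a median of 0.04. As the ratio sets 1 library against 1 other, this comparison has no replicate check.

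Both subunits showed the shift. The median log2 ratio was 0.09 for 44 abundant large subunit genes, of which 39 were higher in replicate 2, and 0.11 for 31 small subunit genes, of which 30 were higher. The largest ratio was that of rla-1, with 1484 RPKM (replicate 1) and 1744 RPKM (replicate 2), followed by rpl-33 at 2131 and 2416 RPKM and rps-12 at 1828 and 2071 RPKM. C37A2.7, which like rla-1 encodes a stalk tip protein, had a log2 ratio of 0.23, the same to 2 decimals as rla-1, whereas rla-2 was at 0.08. On the other side rps-2, at the messenger RNA entry, had 1808 RPKM (replicate 1) and 1711 RPKM (replicate 2), and was the only 1 of 31 small subunit genes lower in replicate 2. rpl-11.1 had a log2 ratio of -0.09 and rpa-1 of -0.14. The remaining lower genes of the abundant set were rpl-38, rpl-29, rpl-41 and rpl-14, at log2 ratios of -0.04 or nearer to 0. The ratio showed no relation to coding length in the 74 genes (Spearman's rho -0.002, a description).

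**Figure D3:**
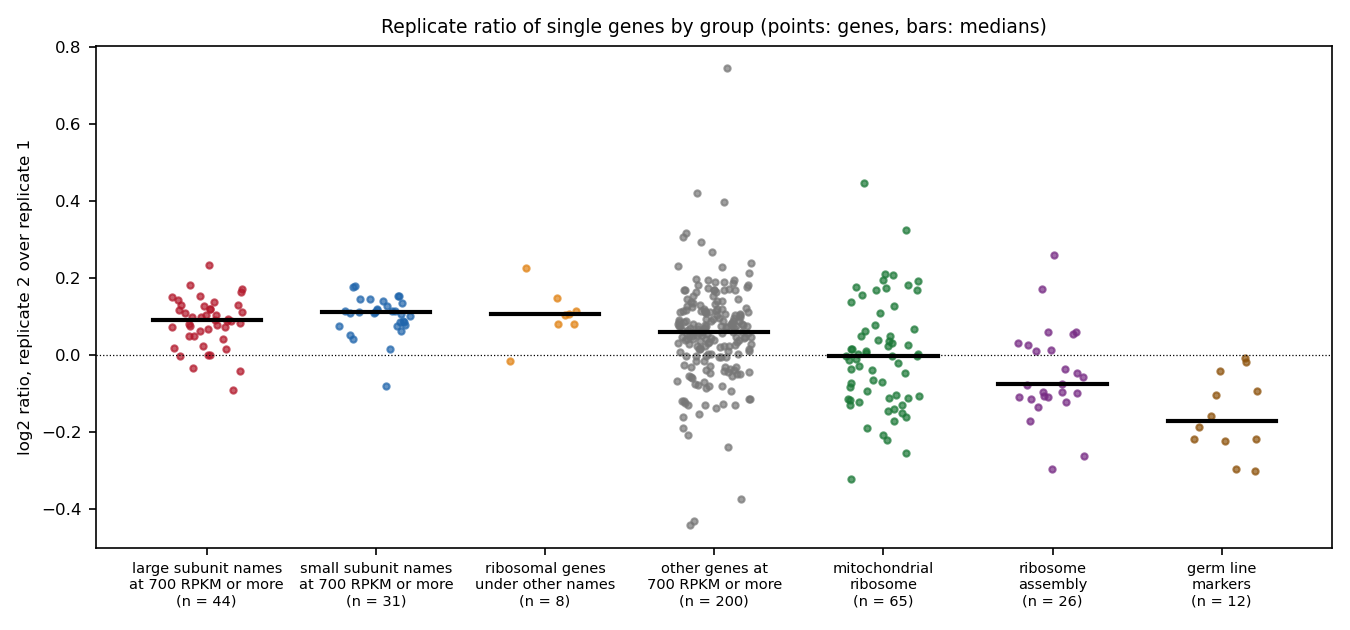
Log2 ratio of replicate 2 to replicate 1 for single genes, from log2(RPKM + 1), in 7 groups, with bars at the medians. The ribosomal genes cluster near 0.1, other genes at 700 RPKM or more spread more widely around 0.06, and the germ line markers all lie below 0.

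Lists of related genes were lower in level and had replicate ratios closer to those of all genes. The 65 mitochondrial ribosomal protein genes, whose products translate the messages of the mitochondrial genome, had a median of 49.3 RPKM, from 18.3 to 159 RPKM, so the median of the cytosolic set was 45.3 times higher. On the log2(RPKM + 1) scale this difference was 5.50 in replicate 1 and 5.54 in replicate 2. Their median log2 ratio between replicates was -0.002, with 31 of 65 higher in replicate 2, a share near the 44.2% of all genes. Of 40 listed genes of ribosome assembly and RNA processing 26 were measured, with a median of 28.6 RPKM and a median log2 ratio of -0.08, and 9 of 26, or 34.6%, were higher in replicate 2, against the same 44.2%. Within that list fib-1, the methyltransferase fibrillarin of the nucleolus, was at 261 and 241 RPKM, and eif-6, which keeps the subunits apart during assembly, was at 68.2 and 81.9 RPKM. These lists are far lower than the ribosomal genes, so level differs along with function.

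Markers of cell types moved between the libraries as well. All 12 germ line markers were lower in replicate 2 (median log2 ratio -0.17), as were 8 of 10 oocyte and eggshell markers (median -0.09, summed levels of 2536 RPKM in replicate 1 and 2522 RPKM in replicate 2). Of 8 sperm markers with a mean RPKM of at least 1, 7 were higher in replicate 2, and the full list of 10 summed to 757 RPKM there beside 573 RPKM in replicate 1. Of 8 muscle markers 4 were higher in replicate 2 (median log2 ratio 0.01), of 10 intestine markers 6 (0.07), of 6 epidermis and cuticle markers 1 (-0.14), of 8 neuronal markers 5 (0.04) and of 4 pharyngeal markers past that same filter 1 (-0.08). These lists are short, so the muscle, intestine, neuronal and pharyngeal counts do not show a movement of these cell types. The sums, which a few abundant genes carry, can run the other way, as in the intestine list. Muscle markers summed to 8041 and 8435 RPKM, intestine markers to 12665 and 12569 RPKM, and epidermis and cuticle markers to 7497 and 6968 RPKM in replicates 1 and 2. Neuronal markers summed to 546 and 571 RPKM, and pharyngeal markers to 55.1 and 46.3 RPKM. None of the markers was at 0, which does not show that each was detected. Their part in the shift of the ribosomal genes was not tested.

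The genes also shared a compact structure and an uneven place in the genome. For 74 abundant members with a WBcel235 match the median gene span was 760 bp and the median coding length 453 bp, beside 2156 bp and 1014 bp for 17905 protein-coding genes measured. The median was 3 exons in the members and 5 in all those genes, while the 189 other abundant genes also had 3, with a span of 1178 bp. Chromosome I held 22 of the 74 members, or 29.7%, beside 14.8% of all protein-coding genes. Chromosome X held 2, or 2.7%, beside 13.9% of all protein-coding genes and 18.5% of the other abundant genes. These 2 were rpl-11.2 and rpl-25.1, and each had a paralog on an autosome. No other abundant member with a WBcel235 match lay on X, and rpl-41 was not placed.

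**Figure D4:**
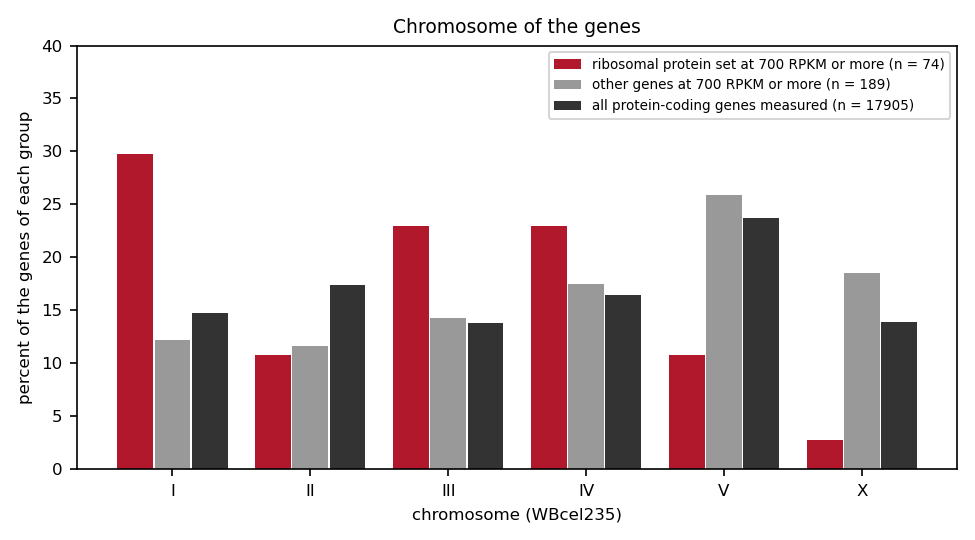
Percent of the genes of each group on each chromosome, from the WBcel235 annotation, for 74 abundant members, 189 other genes at 700 RPKM or more and all 17905 protein-coding genes measured. Members are concentrated on chromosomes I, III and IV, and only 2.7% lie on X.

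Some members were close neighbours. With the genes under other names included, 5 pairs lay within 2000 bp of each other, of which 3 pointed away from each other from a shared intergenic stretch. Close pairs were not counted among other genes, and rpl-41 could not be placed. Neither closeness nor orientation is thus shown to be particular to the set. rps-10 and rpl-24.1 lay 609 bp apart on chromosome I, at 2228 ± 125 and 2514 ± 190 RPKM (SD, n = 2). rps-14 and rpl-36 lay 662 bp apart on chromosome III, at 3040 ± 230 and 2327 ± 124 RPKM. rpl-39 and rps-30 lay 498 bp apart on chromosome V, at 2422 ± 29.4 and 1734 ± 93.7 RPKM. Each of these 3 pairs joins a gene of the large and a gene of the small subunit. On the same strand of chromosome I, rla-1 and Y37E3.8 lay 105 bp apart, at 1614 ± 184 and 3415 ± 135 RPKM. F54D7.6 and F54D7.7 lay 699 bp apart at their unequal levels given above.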

How the data were processed

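Total RNA of 2 samples was made into TruSeq libraries, per the labels' protocols. The authors deposited RPKM per gene and replicate, per the file headers. CASAVA 1.8.2 was used, per the submitters' processing notes. No source used here gives the aligner, the read assignment, the annotation or the build. Commas were removed from 205 and 208 values. Of 19990 rows, 104 that give coordinates and 12 with repeated names were left out. Of the 80 genes, 79 matched Ensembl release 115 of WBcel235. Other symbols come from RefSeq for the same assembly. Coordinates are those of WBcel235 and no coordinate of the table was used.

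Depth was taken from low values: RPKM times coding length came within 0.1 of a whole read (values of at most 20 reads) in 85.1% of 4984 cases for replicate 1 and in 85.9% of 3813 for replicate 2. Chance gives 20%. The floor is 3 reads. Ratios used log2(RPKM + 1), which understates differences of low genes, and a mean RPKM of at least 1. With 1 group there was no test between groups and no p-value. The members and lists were chosen with earlier results of these data known. Named were the 10 highest and 10 lowest members, the 3 highest and 3 lowest replicate ratios, the stalk, the name pairs and role lists. The level of 700 RPKM, and other genes named, were chosen with values in view. Scripts were tested on simulated data. Alternatives covered pseudocounts, filters, scalings, gene sets, read shares and leaving out a replicate. Software was scipy 1.17.1, numpy 2.4.6, matplotlib 3.10.9 and pandas 2.3.3 under Python 3.11.15.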

Additional observations from a re-analysis of the deposited data

How the results depend on the processing

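Of 78 alternative values, 57 stayed within the spread between replicates or within 1.5 times a count, and 21 went beyond it. None changed sign, but levels, shares and counts could not do so. Where a value is the average of the replicates, leaving out a replicate cannot move it beyond their SD. The tally is thus no measure of how firm the results are. The large minus small difference of medians, -0.27, ranged from -0.29 to -0.27 when a replicate was left out. It was -0.25 with members of at least 100 RPKM, -0.16 with ubq-2, ubl-1 and rack-1, and -0.29 with coding lengths of at least 400 bp. Added after seeing the data were -0.25 without rpl-24.2, rpl-37 and rpl-42 and -0.17 with all 8 genes under other names. The small subunit median, 11.36 (log2), was 11.26 with ubl-1 and rack-1 included. The distance to the mitochondrial genes, 5.47, ranged from 5.50 to 5.54 when a replicate was left out. The members' share of RPKM was 17.4% on average. As a share of estimated reads, where longer genes weigh more and rpl-41 is left out, it was 10.2%. In RPKM it was 18.1% with ubq-2, ubl-1 and rack-1 and 19.5% with all 8, again added. The log2 ratio of rpl-24.1 over rpl-24.2, 5.95, was 5.98 with a pseudocount of 0.1 and 5.88 as reads, and that of rpl-7 over rpl-7A, 1.05, was 0.93 as reads. The median replicate ratio of the members, 0.10, was 0.072 with equal sums, 0.12 with the median of all genes at 0, 0.021 after quantile normalization and 0.040 with the median of the other abundant genes at 0, an alternative added after seeing the data. The cause of these shifts was not tested. The count beyond 1.2-fold, 1, was 0 among members of at least 100 RPKM and 0 without rpa-1, rpa-2, rpl-24.2, rpl-37 and rpl-42, also added after seeing the data. No paired analysis was possible because there is only 1 group. Depth limits rpl-37 and rpl-42, which rest on about 2 and 12 reads in each replicate.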
